A study of Mus musculus with 23 samples.

Results

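Expression of the circadian clock genes was examined in the brain of adult male progenies of mothers on 3 diets. The members were the 10 clock genes Arntl, Clock, Per1, Per2, Per3, Cry1, Cry2, Dbp, Nr1d1, and Nr1d2, and every non-control probe that carried one of these gene names was taken, whatever its values. These were 13 of the 39429 probes of the array, with a pair of probes each for Cry2, Dbp, and Nr1d2. In such a pair, the probe with the higher mean over the 12 arrays is called the brighter probe and stands for the gene.

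Of the 23 samples in the series, the 12 expression arrays were used, 1 for the whole brain of each mouse with cerebrum and cerebellum together, and 4 mice per diet. All mice were C57BL/6J males of 19 weeks that came from in vitro fertilization of gametes from normally fed C57BL/6J parents, were carried by an ICR recipient mother, were born by caesarean section, and were raised by an ICR foster mother. The recipient mothers of the CD group were given a control diet with 20% casein and 0.02% folic acid, those of the PR group a protein-restricted diet with 5% casein and 0.02% folic acid, and those of the FA group 5% casein with 0.1% folic acid. They ate these diets from before embryo transfer until delivery. For the foster mothers, the methods of the paper name the control diet only, while its results name the CD, PR, and FA diets. After weaning, the progenies of every group ate the control diet, and they went through behavioral tests before the brains were frozen. The litter of a mouse and the time of day at which its brain was taken are not given in the sources used here. The p-values therefore measure the spread between these mice only. The arrays of each diet lay on a slide of their own, so an effect of the slide and an effect of the diet cannot be told apart.

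The circadian clock is a feedback loop of transcription that runs in nearly every cell. ARNTL (BMAL1) and CLOCK bind together to E-boxes and activate the Per and Cry genes, whose proteins return to the nucleus and inhibit them. The same pair activates Nr1d1 and Nr1d2, whose REV-ERB proteins repress Arntl through ROR elements, and Dbp, a factor that acts on D-boxes. Transcripts of the activator Arntl and of targets such as Dbp and Nr1d1 therefore peak at opposite times of day, and the master clock of the brain lies in the suprachiasmatic nucleus of the hypothalamus.

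The promoter stretches below show these elements at the genes whose levels are described next. They were taken from RefSeq windows of GRCm38.p6 that run from 250 bases before to 50 bases after the transcription start, in which 9 of the 10 genes were found with 13 windows. Each stretch is written 5′ to 3′ on the strand of the gene, and capitals mark the motif that was searched. The first stretch belongs to Nr1d1, chr11:98775378-98775627 on the minus strand, and holds 1 variant E-box 28 to 23 bases before the start. The stretch of Per1, chr11:69098699-69098948 on the plus strand, holds an E-box 166 to 161 bases before the start.

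Nr1d1: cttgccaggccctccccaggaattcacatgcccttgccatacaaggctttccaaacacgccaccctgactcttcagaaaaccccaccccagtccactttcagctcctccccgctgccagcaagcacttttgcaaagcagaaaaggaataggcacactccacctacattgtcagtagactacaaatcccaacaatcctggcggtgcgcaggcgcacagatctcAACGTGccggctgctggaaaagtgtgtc
Per1: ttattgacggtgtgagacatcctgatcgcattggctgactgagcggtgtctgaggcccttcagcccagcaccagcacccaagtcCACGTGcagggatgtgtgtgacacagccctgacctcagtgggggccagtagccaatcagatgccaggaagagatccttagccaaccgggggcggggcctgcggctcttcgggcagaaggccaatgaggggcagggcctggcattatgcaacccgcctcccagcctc

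Shorter stretches show the other kinds of element. That of Cry1, chr10:85185055-85185174 on the minus strand, holds a variant E-box followed by an E-box. That of Per3, chr4:151044796-151044915 on the minus strand, holds a pair of D-boxes. The stretch of Arntl, chr7:113207530-113207556 on the plus strand, covers bases 20 to 46 from the transcription start of its second window. It holds the core of a ROR element at bases 31 to 37.

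Cry1: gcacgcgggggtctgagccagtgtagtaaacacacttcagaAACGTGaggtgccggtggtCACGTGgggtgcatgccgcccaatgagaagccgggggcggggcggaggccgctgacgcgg
Per3: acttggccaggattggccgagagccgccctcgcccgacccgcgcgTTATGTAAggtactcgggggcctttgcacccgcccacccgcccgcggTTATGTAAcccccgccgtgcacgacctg
Arntl: aaggcagaaagTAGGTCAgggacggag

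The E-box CACGTG, the same on both strands, was in the windows of 2 of the 9 genes and in 7.15% of all 32851 windows. The variant CACGTT or AACGTG was found for 3 genes (Cry1, Cry2, and Nr1d1) and in 4.68% of all windows. A D-box, searched as TTATGTAA or TTACGTAA on both strands, was found for Per3 and in 1.06% of windows. The ROR core, TAGGTCA or TGGGTCA on both strands, was found for Arntl and in 6.45% of windows, and the cAMP response element TGACGTCA for none of the genes and in 1.79%. None of these motifs overlapped another in the windows of the members. A match says only that these letters are in the window.

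A probe of the array is an oligonucleotide of 60 bases. All 13 probes were well above the local background on 12 of 12 arrays, none was saturated, and each was printed as 1 spot per array. The probe of Nr1d1, the gene with the smallest p-value among the members in both comparisons with CD, spans 503 bases of the genome at chr11:98630526-98631028 on the minus strand of mm9, the build of the files, so it crosses an intron. The first 30 bases of the paired probes are shown with it, since the paired probes gave different values for the same gene.

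Nr1d1: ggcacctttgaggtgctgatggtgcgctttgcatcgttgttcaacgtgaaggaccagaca
Dbp brighter probe: atggccagtggtctggccagctaggtgccc
Dbp dimmer probe: tggggaacccatccatccaaccgcctccat
Cry2 brighter probe: tctcccacagtttgtttgtgaatatttacc
Cry2 dimmer probe: tcctcctgagtgctggaaattcagatacga
Nr1d2 brighter probe: ctgtgaggggagctcagatagatgtatctt
Nr1d2 dimmer probe: ccagaactgttagtattgcttgtgatgctt

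All 12 arrays were kept. Spots well above background numbered 27068 to 28458 on the CD arrays, 31266 to 33478 on the PR arrays, and 30408 to 31672 on the FA arrays, so the CD arrays had the fewest. Markers of neurons, astrocytes, oligodendrocytes, and microglia were well above background on all arrays. Gh and Prl, hormone genes of the pituitary, were measured above background in 4 of 4 CD mice, in 0 of 4 PR mice, and in 1 of 4 FA mice. In whole tissue, fewer cells of a type and less RNA per cell cannot be told apart. Values are the normalized intensity on the log2 scale, where a difference of 1 is a doubling, and levels are not compared between probes.

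The first question was whether a clock gene differed between the PR and the CD progenies. Of the 13 probes, 2 rose in PR at an adjusted p under 0.05 in limma, Nr1d1 and Arntl, and 0 fell. Over all probes, 13.4% rose and 16.6% fell by the same rule, and 30.8% of the 23753 probes well above background on all arrays changed either way. The share among the clock genes was thus not above that of the array. With another background correction, the normexp method, 56.8% of all changed probes were higher in PR, against 44.7% in the deposited values.

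Between FA and CD, 7 of the 13 probes changed, 6 of them higher in FA and 1 lower. They belonged to 5 genes. Both probes of Dbp and of Nr1d2, the dimmer probe of Cry2, and Nr1d1 rose, and Per1 fell. Over all probes, 16.4% rose and 18% fell in FA, and 37% of the probes well above background changed. The comparisons of PR and of FA with CD share the same 4 CD arrays.

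Between FA and PR, 0 of the 13 probes changed in limma or in the Tukey test of the methods, with 4 at an unadjusted p under 0.05 in limma. Over all probes, 0.228% were higher and 0.386% lower in FA at an adjusted p under 0.05, and 0.775% of the probes well above background changed. Of all changed probes 37.2% were higher in FA, and 16.8% with each array scaled to its 75th percentile. No clock gene probe met the limits stated in the methods of the study, a 2-fold change at an adjusted p under 0.0001, in any comparison. With limma p-values, those limits were met by 0.0862% of all probes between PR and CD, by 0.195% between FA and CD, and by 0% between FA and PR. With the Tukey test, which the study used, they were met here by 0, 1, and 0 probes. The paper reports genes past its limits in every comparison.

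**Figure D1:**
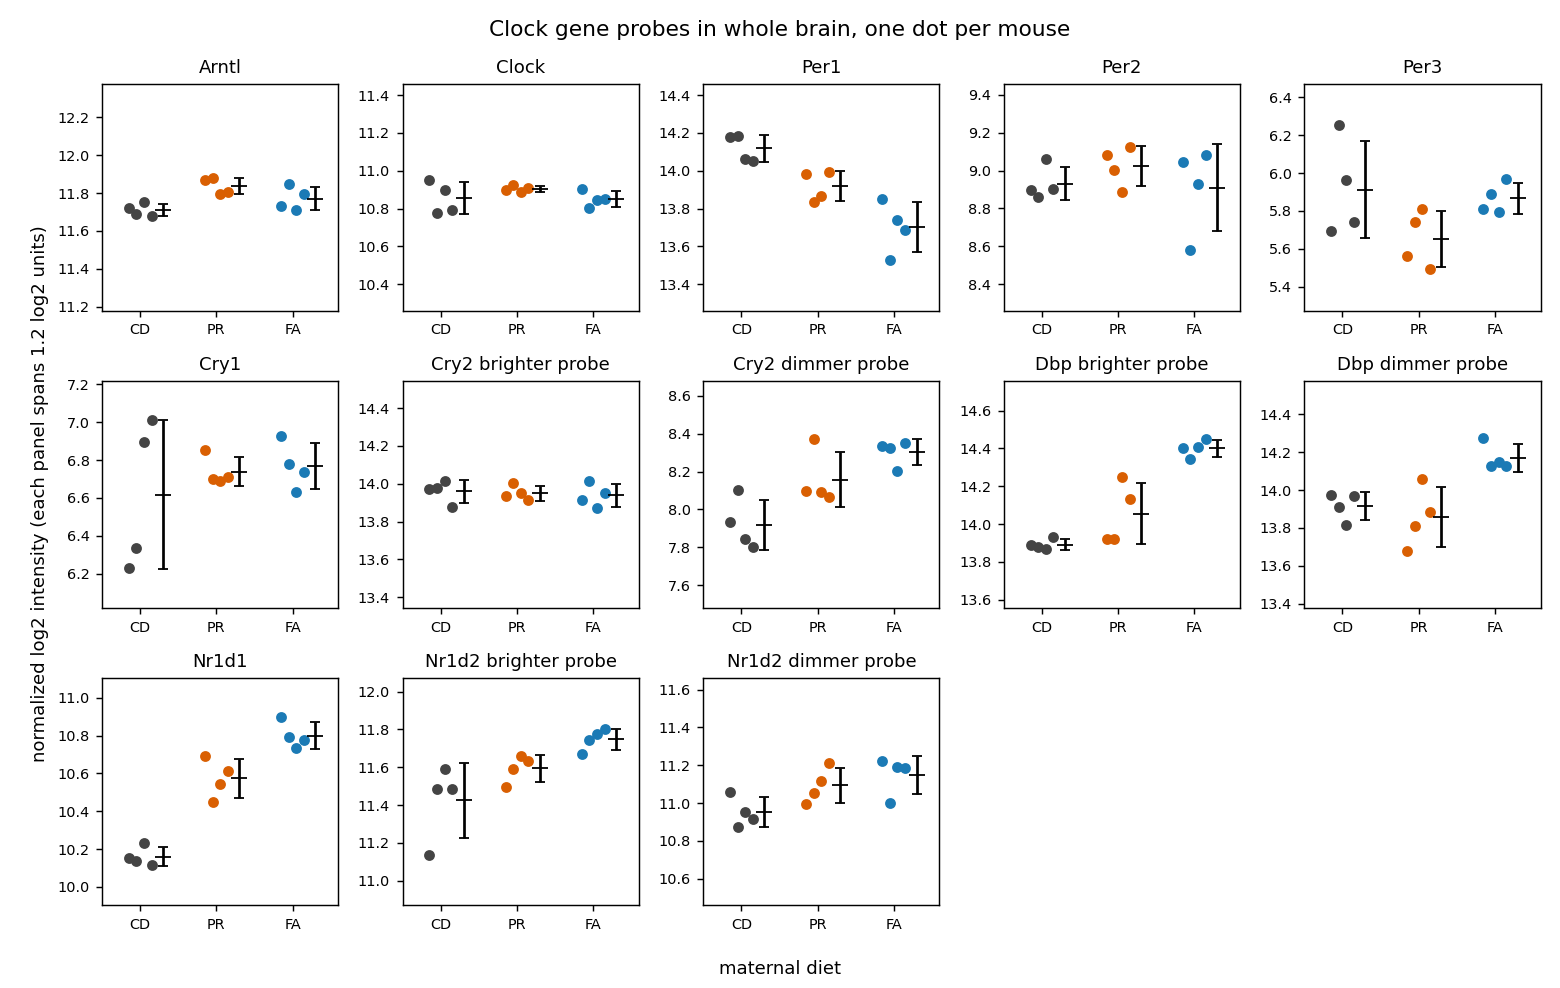
Normalized log2 intensity (vertical axis) of the 13 clock gene probes in each mouse, by maternal diet (horizontal axis), with 1 dot per mouse and the mean ± SD of 4 mice as bars. Every panel spans 1.2 log2 units around its own values; Nr1d1 in PR and FA, and the brighter Dbp probe in FA, lie above all CD mice, and Per1 in PR and FA lies below them.

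Arntl and Clock are the activators of the loop. Arntl was 11.72, 11.69, 11.75, and 11.68 in the CD mice, 11.87, 11.88, 11.80, and 11.81 in the PR mice, and 11.73, 11.85, 11.71, and 11.79 in the FA mice. All PR mice lay above all CD mice, and the FA mice overlapped both groups. Arntl was 0.13 higher in PR than in CD (SE 0.04, adjusted p = 0.044 in limma), a 1.09-fold difference. The adjusted p lay between 0.037 and 0.098 when 1 array was left out, and the call was kept only without FA replicate 2 or without FA replicate 3. It was 0.081 when arrays were scaled to the 75th percentile. In FA, Arntl differed from CD by 0.06 (95% confidence interval -0.03 to 0.15).

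Clock was 10.95, 10.78, 10.90, and 10.79 in CD, 10.90, 10.92, 10.89, and 10.91 in PR, and 10.90, 10.80, 10.84, and 10.85 in FA. The groups overlapped. The difference was 0.05 between PR and CD (95% confidence interval -0.05 to 0.15) and -0.01 between FA and CD (95% confidence interval -0.11 to 0.10).

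The Per genes encode inhibitors of the activators, and Per1 is in addition a gene that responds fast to light and to glucocorticoids. Per1 was 14.18, 14.18, 14.06, and 14.05 in the CD mice, 13.98, 13.84, 13.87, and 13.99 in the PR mice, and 13.85, 13.53, 13.74, and 13.69 in the FA mice. All PR and all FA mice lay below all CD mice, and PR and FA overlapped. Per1 fell by 0.42 on the log2 scale in FA (SE 0.07, adjusted p = 0.0014 in limma), which is 1.33-fold lower than in CD. In PR the difference was -0.20 (SE 0.07, adjusted p = 0.059), and it was -0.29 with an adjusted p of 0.0076 when arrays were scaled to the 75th percentile. That scaling also moved the median difference of all probes with a log2 level over 13, the range of Per1, to -0.11. Without FA replicate 1 or FA replicate 2, which enter the estimate of the spread, the adjusted p of Per1 in PR was 0.043 and 0.032. When 1 array was left out, it lay between 0.032 and 0.13, with a call in 2 of 12 fits. Per1 in PR was called in 6 of the 21 alternatives and not in the other 15. Between FA and PR the difference was -0.22 (adjusted p = 0.20).

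Per2 ran from 8.86 to 9.06 in CD and from 8.88 to 9.13 in PR, and it was 9.05, 8.58, 8.93, and 9.08 in the FA mice. FA replicate 2 had the lowest level of Per2 and of Per1 among the FA mice, and the groups overlapped. The difference between FA and CD was -0.02 (95% confidence interval -0.25 to 0.21), and that between PR and CD was 0.09 (95% confidence interval -0.14 to 0.33).

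Per3 was the dimmest of the 13 probes. Its levels ran from 5.70 to 6.25 in CD, from 5.49 to 5.81 in PR, and from 5.79 to 5.97 in FA, and the groups overlapped. The difference between PR and CD was -0.26 (95% confidence interval -0.53 to 0.00, adjusted p = 0.13), with a value of -0.07 under the normexp background correction. Between FA and CD the difference was -0.05 (95% confidence interval -0.31 to 0.22).

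Cry1 and Cry2 encode cryptochromes, the partners of the PER proteins in inhibition. Cry1 was 6.23, 6.33, 6.89, and 7.01 in the CD mice, 6.85, 6.70, 6.69, and 6.71 in the PR mice, and 6.93, 6.78, 6.63, and 6.74 in the FA mice. CD replicates 1 and 2 lay below all other mice, while CD replicate 4 was the highest of all 12. The difference from CD was 0.12 in PR (95% confidence interval -0.24 to 0.48) and 0.15 in FA (95% confidence interval -0.21 to 0.51).

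The pair of Cry2 probes differed. The brighter probe was 13.97, 13.98, 14.01, and 13.88 in CD, 13.94, 14.01, 13.95, and 13.91 in PR, and 13.92, 14.01, 13.87, and 13.95 in FA. All 3 groups overlapped, and the difference between FA and CD was -0.02 (95% confidence interval -0.12 to 0.08). The dimmer probe, designed for another transcript record of Cry2, was 7.93, 8.10, 7.85, and 7.80 in CD, 8.10, 8.37, 8.09, and 8.07 in PR, and 8.34, 8.33, 8.21, and 8.35 in FA. All FA mice lay above all CD mice at this probe. It rose by 0.38 in FA (SE 0.08, adjusted p = 0.0054 in limma), and was 0.24 higher in PR (SE 0.08, adjusted p = 0.056; 0.034 with arrays scaled to the 75th percentile and 0.023 without CD replicate 2). In PR it was called in 5 of the 21 alternatives and not in the other 16. When 1 array was left out, the adjusted p in PR lay between 0.023 and 0.13, with a call in 1 of 12 fits. Over the 12 mice the deviations of the pair of Cry2 probes from their group means had r = 0.58.

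Dbp encodes a D-box activator that carries the rhythm of the core loop to output genes. At the brighter probe, Dbp was 13.89, 13.88, 13.87, and 13.93 in the CD mice, 13.92, 13.92, 14.25, and 14.13 in the PR mice, and 14.40, 14.34, 14.41, and 14.45 in the FA mice. All FA mice lay above all other mice. Within PR, replicates 1 and 2 were inside the range of CD, and replicates 3 and 4 lay between CD and FA. Dbp rose by 0.51 in FA relative to CD (SE 0.07, adjusted p = 0.00045 in limma), a 1.42-fold difference. Between PR and CD the difference was 0.16 (SE 0.07, adjusted p = 0.11), and between FA and PR it was 0.35 (SE 0.07, adjusted p = 0.061, and 0.040 without PR replicate 3).

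The dimmer Dbp probe was 13.97, 13.91, 13.81, and 13.97 in CD, 13.68, 13.81, 14.06, and 13.88 in PR, and 14.28, 14.13, 14.15, and 14.13 in FA. Again all FA mice lay above all others, and PR replicates 3 and 4 were the highest of the PR mice. The increase in FA was 0.25 (SE 0.08, adjusted p = 0.029). It was 0.16 with an adjusted p of 0.13 when arrays were scaled to the 75th percentile, and the adjusted p was 0.053 to 0.078 when CD replicate 2, CD replicate 3, FA replicate 1, or FA replicate 3 was left out. Between PR and CD the difference was -0.06 (95% confidence interval -0.23 to 0.11). Over the 12 mice the deviations of the pair of Dbp probes from their group means had r = 0.78.

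Nr1d1 and Nr1d2 encode the REV-ERB receptors, the repressors of Arntl. Nr1d1 was 10.15, 10.14, 10.23, and 10.12 in the CD mice, 10.69, 10.45, 10.54, and 10.61 in the PR mice, and 10.90, 10.80, 10.73, and 10.78 in the FA mice. The CD, PR, and FA mice followed each other in this order with no overlap. Nr1d1 rose by 0.41 in PR (SE 0.06, adjusted p = 0.00059 in limma), 1.33-fold, and by 0.64 in FA (SE 0.06, adjusted p = 7.3e-05), 1.56-fold. Both calls were kept in all 21 alternatives, with 0.38 to 0.46 in PR and 0.61 to 0.66 in FA. Between FA and PR the difference was 0.23 (SE 0.06, adjusted p = 0.12).

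At the brighter probe of Nr1d2, the levels were 11.14, 11.49, 11.59, and 11.49 in CD, 11.50, 11.59, 11.66, and 11.64 in PR, and 11.67, 11.75, 11.77, and 11.80 in FA. All FA mice lay above all others, and CD replicate 1 was the lowest. Nr1d2 rose by 0.32 in FA relative to CD at this probe (SE 0.09, adjusted p = 0.017 in limma, and 0.044 at the most when 1 array was left out). The dimmer probe was 11.06, 10.87, 10.95, and 10.92 in CD, 11.00, 11.05, 11.12, and 11.21 in PR, and 11.22, 11.00, 11.19, and 11.18 in FA. FA replicate 2 lay inside the range of CD here. The increase in FA was 0.20 (SE 0.07, adjusted p = 0.039), and the adjusted p lay between 0.050 and 0.0997 when CD replicate 2, 3, or 4, PR replicate 2 or 3, or FA replicate 1, 3, or 4 was left out. In PR, the differences of the brighter and the dimmer Nr1d2 probe from CD were 0.17 (adjusted p = 0.18) and 0.14 (adjusted p = 0.13). Without CD replicate 1, the difference at the brighter probe was 0.07 (adjusted p = 0.37). The deviations of the pair of Nr1d2 probes had r = -0.23 over the 12 mice.

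**Figure D2:**
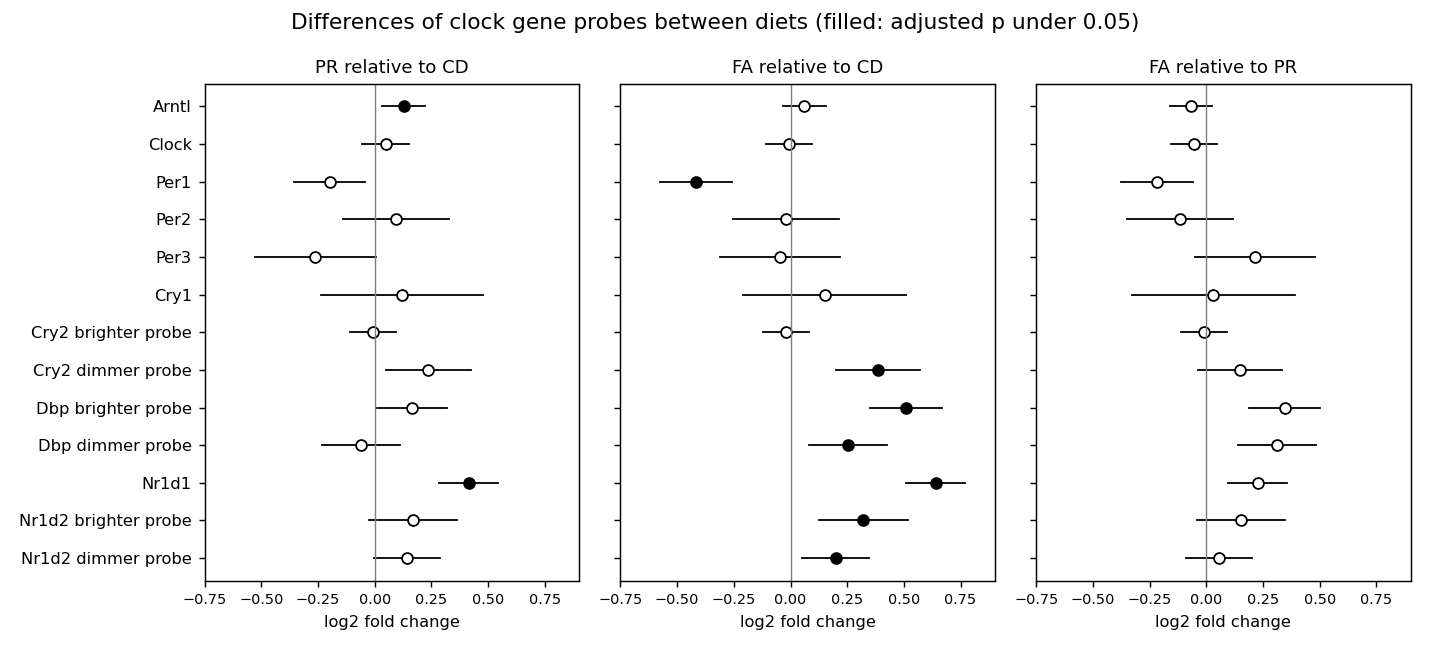
Log2 fold change (horizontal axis) of each clock gene probe (vertical axis) in 3 comparisons, with 95% confidence intervals as lines; filled circles have an adjusted p under 0.05. Filled circles are 2 of 13 between PR and CD, 7 of 13 between FA and CD, and 0 of 13 between FA and PR.

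The members were then set side by side by role in each mouse, as a description, with 1 probe per gene and the mean deviation from the mean of the 12 arrays. For Dbp, Nr1d1, and Nr1d2 together, this level was -0.35, -0.24, -0.18, and -0.23 in the CD mice, -0.04, -0.09, 0.08, and 0.06 in the PR mice, and 0.25, 0.22, 0.23, and 0.27 in the FA mice. The groups followed each other without overlap, as they did for Nr1d1 alone above, so this level is no further support. Only the difference of activators and targets described below was planned, and this split of the targets was not. For Arntl and Clock the level ran from -0.09 to 0.01 in CD, from 0.02 to 0.08 in PR, and from -0.04 to 0.00 in FA. The activators were thus highest in PR, and the FA mice overlapped the CD mice. For the 3 Per genes it ran from 0.01 to 0.21 in CD, from -0.04 to -0.02 in PR, and from -0.23 to 0.02 in FA.

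Arntl and targets such as Dbp and Nr1d1 peak at opposite times of day. Activators and targets were therefore set against each other in each mouse, as a description and not as a measure of phase. The difference was the level of Arntl and Clock minus that of the Per genes, Dbp, Nr1d1, and Nr1d2, with the Cry genes left out. It was 0.17, -0.07, 0.03, and 0.03 in the CD mice, 0.09, 0.14, 0.00, and 0.02 in the PR mice, and -0.13, 0.00, -0.12, and -0.15 in the FA mice. FA replicates 1, 3, and 4 lay below all CD and PR mice, and FA replicate 2 lay inside their range. Among the targets, Per1 lay lower in FA while Dbp and Nr1d1 lay higher. The time of collection was not measured in these data, and its part in these differences was not tested.

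**Figure D3:**
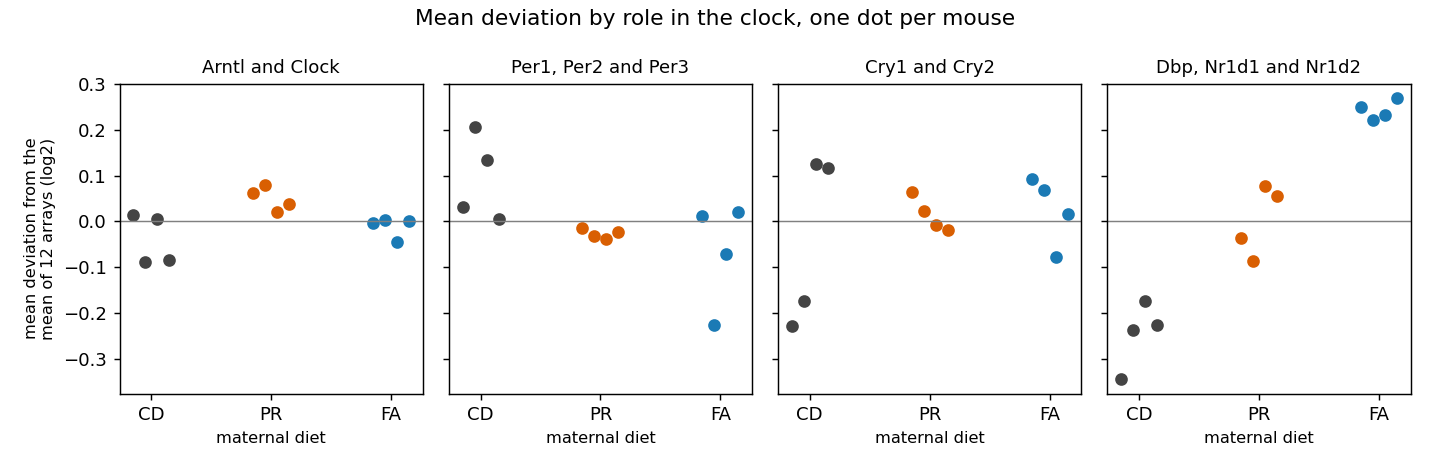
Mean deviation from the mean of 12 arrays (vertical axis, log2) of clock genes grouped by role, by maternal diet (horizontal axis), with 1 dot per mouse and 1 probe per gene. Dbp, Nr1d1, and Nr1d2 run from -0.35 to -0.18 in CD and from 0.22 to 0.27 in FA, while the Per and Cry genes overlap between CD and FA. Showing Dbp, Nr1d1, and Nr1d2 apart from the Per genes was not planned.

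The spread between mice of the same diet differed among the members. The SD pooled over the 3 groups was 0.05 for Arntl, Clock, and the brighter Cry2 probe, below the median of 0.10 over the 23753 probes well above background. Of these probes, 5.01% had a smaller SD than Arntl and 9.54% a smaller SD than Clock. Nr1d1 had an SD of 0.08. For Per1 and the brighter Dbp probe the SD was 0.10, near that median. It was 0.15 for Per2, 0.18 for Per3, and 0.24 for Cry1, and 91.7% of the probes had a smaller SD than Cry1. Without FA replicate 2, the SD of Per2 was 0.09. Under the normexp background correction, the SD of Cry1 was 0.11 and that of Per3 was 0.07. For Dbp, the PR mice were the most spread, with an SD of 0.16 against 0.03 in CD and 0.04 in FA.

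The deviations of the mice from their group means were then compared between Arntl and each of the other 9 genes, with the brighter probe of a pair. The dimmer Cry2 probe, whose deviations had r = 0.58 with those of the brighter, was not set against Arntl. The brighter Cry2 probe moved with Arntl (Pearson's r = 0.82, exact permutation p = 0.0043, 0.038 after adjustment over 9 genes, 12 mice). Spearman's rho was 0.80 (exact permutation p = 0.0095, adjusted 0.086). Without the 2 mice farthest from the median of Arntl, FA replicates 2 and 3, r was 0.68. With arrays scaled to the 75th percentile r was 0.80 with an adjusted p of 0.077, and with the normexp correction 0.61 with an adjusted p of 0.25. Arntl and the brighter Cry2 probe were also the members with the smallest SD, so r rests on deviations of less than 0.1 on the log2 scale.

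Dbp, a target of ARNTL, deviated in the opposite direction (r = -0.62, exact permutation p = 0.037, adjusted 0.16; rho = -0.71, p = 0.023, adjusted 0.10; 12 mice), and r was -0.70 without FA replicates 2 and 3. This relation did not pass the adjustment. Within single groups of 4 mice, as a description, r was -0.74 in CD, -0.98 in PR, where Dbp was the most spread, and -0.46 in FA. For the other 7 genes, the adjusted p was at least 0.40, and r ran from -0.56 for Per1 to 0.10 for Per3.

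**Figure D4:**
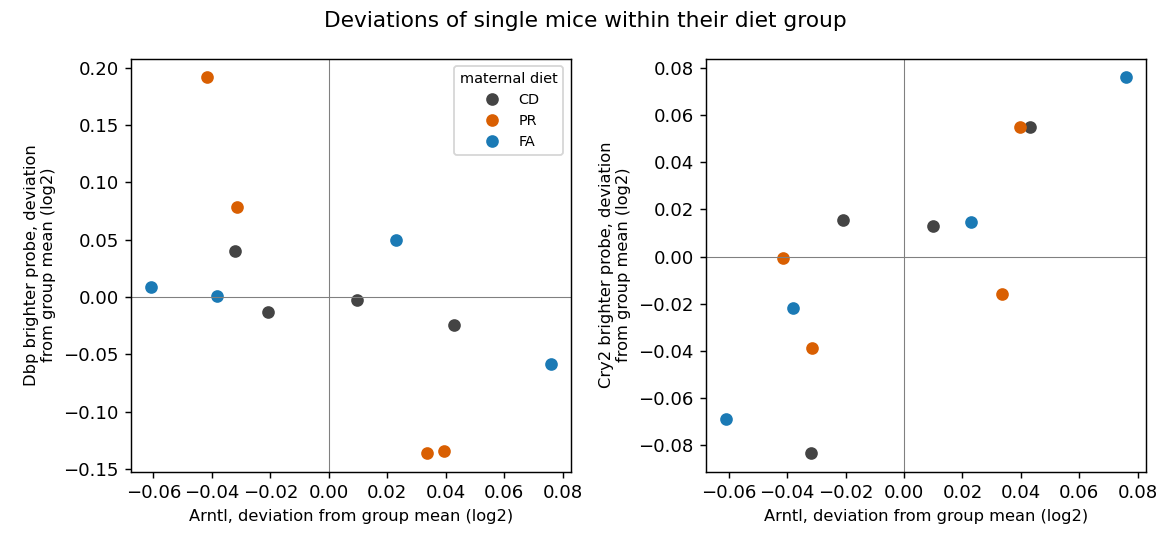
Deviation of each of 12 mice from the mean of its diet group (log2) for Arntl (horizontal axes) against the brighter Dbp probe and the brighter Cry2 probe (vertical axes), with 1 dot per mouse and colors for the diets. Over the 12 mice r was -0.62 for Dbp (adjusted p = 0.16 by the exact permutation test) and 0.82 for Cry2 (adjusted p = 0.038). By ranks, the relation of Cry2 did not pass (Spearman's rho = 0.80, adjusted p = 0.086 by the exact permutation test).

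By the same measure, the probes most like Dbp among the 23753 were those named Lgtn, Tubgcp2, B3galt5, Wdr41, and 2410131K14Rik, with r from 0.88 to 0.92. Those most opposed were named Scarb1, ENSMUST00000098305, Usp13, Pdgfrb, and Zic2, with r from -0.94 to -0.89. For Arntl, the most alike were Mgat3, Eif1ay, Maml3, Nfatc2ip, and Thbs4 (r from 0.93 to 0.96), and the most opposed Cdkn2aipnl, Pim3, Proca1, Dnalc4, and G0s2 (r from -0.92 to -0.90). The lists hold none of the other clock genes. They are the extremes of 23753 correlations over 12 mice, where high values can also arise between unrelated probes. They are a description, and no relation in them was tested.

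Other genes of the clock were taken as a list of 20 genes with 31 probes. Between PR and CD, 5 of these probes rose and 2 fell, and between FA and CD, 4 rose and 1 fell, at median differences of 0.00 and 0.01 beside -0.02 and -0.01 over all probes. One probe of Csnk1e, a kinase that phosphorylates PER proteins, was 0.34 higher in PR (SE 0.06, adjusted p = 0.0030 in limma) and 0.24 higher in FA (adjusted p = 0.017), while its other probe differed by -0.01 and -0.02. One probe of Timeless was 0.35 higher in FA (SE 0.07, adjusted p = 0.0030) and 0.23 higher in PR (adjusted p = 0.027), and the call in PR was lost without CD replicate 3 or 4 or PR replicate 2 or 4 (adjusted p = 0.052 to 0.076). Its other probe, well above background on 10 of the 12 arrays, was 0.90 higher in PR (adjusted p = 0.0086) and 0.56 higher in FA (adjusted p = 0.061). Bhlhe41, a repressor at E-boxes, was 0.62 lower in PR at one probe (SE 0.19, adjusted p = 0.028) and 0.17 lower at the other. At the first of these probes the difference in PR was -0.31 with the normexp correction, and the call was lost without CD replicate 1 or 2 or PR replicate 1 or 4 (adjusted p = 0.054 to 0.076). In FA, Bhlhe41 was 0.58 lower at this probe (adjusted p = 0.035, called in 15 of 21 alternatives), and 7.30 against 7.31 in CD at the other. Bhlhe40, named after its values were seen, was 0.23 higher in PR (adjusted p = 0.029), and 11.99 in FA against 11.95 in CD. Tef and Hlf, the relatives of Dbp that bind the same D-boxes, differed between FA and CD by 0.05 (SE 0.06) and -0.29 (SE 0.12) and did not pass the test; they were named for this relation after their values were seen. Across the alternatives, 3 to 5 probes of the list rose and 0 to 5 fell in PR, and 3 to 6 rose and 0 to 4 fell in FA.

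Genes that respond to neuronal activity, to glucocorticoids, and to temperature were read beside the clock genes, since Per1 and other members respond to the same signals. Of 10 immediate early probes, 5 fell and 0 rose in PR, and 3 fell and 0 rose in FA. Fos, 11.03 ± 0.15 in CD (SD, n = 4), was 0.67 lower in PR (adjusted p = 0.036 in limma) and 0.46 lower in FA (adjusted p = 0.12). Egr2 was 0.72 and 0.84 lower in PR and FA (adjusted p = 0.031 and 0.013). In PR, Nr4a1 was 0.48 lower (adjusted p = 0.026) and Dusp1 was 0.53 lower (adjusted p = 0.044). Across the alternatives, the probes of this list that fell numbered 0 to 6 in PR and 1 to 4 in FA. The calls of Fos, Egr2, Nr4a1, and Dusp1 in PR were each lost without CD replicate 1 or 3 or PR replicate 2 or 3 (adjusted p = 0.054 to 0.096). Not all genes of the list were lower, since Junb differed from CD by 0.00 in PR and 0.08 in FA, and Ier2 by -0.11 and 0.34; both were named after their values were seen. The part of these signals in the level of Per1 was not tested.

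Of 9 probes for glucocorticoid-responsive genes, 2 rose and 0 fell in PR, and 0 rose and 3 fell in FA. Sgk1, a kinase gene, was 14.05 ± 0.06 in CD, 13.67 ± 0.68 in PR, and 12.96 ± 0.32 in FA (SD, n = 4), and fell by 1.09 in FA (SE 0.29, adjusted p = 0.015 in limma). Cdkn1a, a cell cycle inhibitor gene, was 0.64 lower in FA at one probe (adjusted p = 0.018), while its other probe, well above background on 5 of the 12 arrays, differed by 0.92 (adjusted p = 0.21). CD replicate 2 was at 12.04 and the other CD mice at 11.11 to 11.19, and without it the difference was -0.42. Plin4 and Zbtb16 were 0.88 and 0.44 higher in PR (adjusted p = 0.021 for both), and both calls were lost without PR replicate 3 or 4 (adjusted p = 0.052 to 0.062). Across the alternatives, 0 to 2 probes of the list rose and 0 to 1 fell in PR, and 0 to 1 rose and 1 to 4 fell in FA. Of the 4 probes for the cold-induced RNA-binding proteins, Cirbp fell by 0.38 in PR (SE 0.08, adjusted p = 0.0056), and 1 of the 3 probes of Rbm3 rose by 0.43 in FA (SE 0.11, adjusted p = 0.014).

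Of 9 probes for genes of the suprachiasmatic nucleus, 1 fell in PR and 2 fell in FA, and 0 rose in either. Prok2, a signal that the nucleus sends out, was 7.50 ± 0.09 in CD, 7.10 ± 0.10 in PR, and 7.02 ± 0.25 in FA (SD, n = 4), which is 0.40 lower in PR (adjusted p = 0.021 in limma) and 0.48 lower in FA (adjusted p = 0.0074). With the normexp correction these differences were -0.20 and -0.21, and the call in PR was lost without PR replicate 3 (adjusted p = 0.058). Lhx1, a transcription factor gene of the nucleus, was 0.29 lower in FA at one probe (adjusted p = 0.018, and 0.051 without CD replicate 1). Its other probe, at 7.22 ± 0.06 in CD and 7.07 ± 0.13 in FA (SD, n = 4), did not pass. Vip went the other way, with 9.73 ± 0.15 in CD and 10.04 ± 0.13 in FA. It did not pass either, and it was named after its values were seen. Across the alternatives, 0 to 4 probes of the list fell in PR and 1 to 4 in FA, while 0 rose in PR and 0 to 1 in FA. The nucleus is a small part of a whole brain, and which region gave the signal of a clock gene was not tested. Of the pineal gland, the other organ of the rhythm, Crx was well above background on no array. Tph1, an enzyme of serotonin synthesis, was 8.63 in FA replicate 1 and 7.74 in PR replicate 1, against 4.69 to 5.93 in the other mice. Of 3 pineal probes, 0 changed in any comparison.

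Marker lists of the cell types that a whole brain sample can hold were read in the same way. In PR, 3 of 6 endothelial, 3 of 9 oligodendrocyte, and 3 of 8 astrocyte probes rose, with 0, 1, and 1 lower. In FA, 3 of 6 endothelial probes rose with 1 lower, and 3 of 6 probes of cerebellar granule cells fell. Of these 6 granule cell probes, 1 rose and 1 fell in PR. Of 8 microglial probes, 2 rose and 2 fell in both comparisons, and in FA 2 astrocyte probes rose and 2 fell while 1 oligodendrocyte probe rose and 1 fell. Of 8 choroid plexus probes, 1 rose in PR and 1 fell in FA, of 4 neuronal probes 1 fell in PR and 0 changed in FA, and of 3 erythroid probes 0 changed in either. The summed linear intensity of the 6 pituitary probes ran from 2042 to 2116 in CD, from 1036 to 1244 in PR, and from 684 to 1584 in FA, and 2 of them, Gh and Prl, fell in both comparisons. Of the 124 probes of all lists beside the members, 37 changed in PR and 34 in FA. Over all probes, 13.4% rose and 16.6% fell in PR, and 16.4% rose and 18% fell in FA. Of the probes well above background on all arrays, which not all of the 124 were, 30.8% and 37% changed. Between FA and PR, 0 of the 124 probes changed in limma or in the Tukey test, with 25 at an unadjusted p under 0.05.

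Markers of 1 cell type did not all differ from CD in 1 direction, and several markers had probes that disagreed. Among astrocyte markers, Gfap, an intermediate filament gene, rose at 1 of its 3 probes by 0.57 in PR and 0.48 in FA (adjusted p = 0.00024 and 0.00055 in limma), also rose at the second by 0.43 and 0.32, and differed by 0.15 and 0.00 at the third, which did not pass. Aqp4, a water channel gene, fell by 0.21 and by 0.35 (adjusted p = 0.036 and 0.0026) at one probe, with differences of -0.21 (adjusted p = 0.060) and -0.44 at the other. The gap junction gene Gja1 was 0.30 higher in PR (adjusted p = 0.035) and 0.18 higher in FA (adjusted p = 0.17). In microglia, the receptor gene Cx3cr1 rose by 0.62 and 0.38 at one probe (adjusted p = 0.00015 and 0.0021), while the other differed by -0.24 and -0.21 (adjusted p = 0.056 and 0.086). Csf1r was 0.30 lower in PR at one probe (adjusted p = 0.044; -0.19 without CD replicate 2) and 0.29 higher at another (adjusted p = 0.0020). Aif1 fell by 0.37 and by 0.28 (adjusted p = 0.0096 and 0.031).

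Tek, an endothelial receptor gene, rose by 0.76 in PR and 0.88 in FA (adjusted p = 0.0032 and 0.0012 in limma), and by 0.40 and 0.48 with the normexp correction. The tight junction gene Ocln was 0.42 and 0.35 higher at one probe (adjusted p = 0.016 and 0.034), and its other probe differed by -0.21 and -0.24 (adjusted p = 0.18 and 0.13). Cldn5 was 0.30 and 0.31 higher (adjusted p = 0.058 and 0.043), and Pecam1 0.39 and 0.16 higher (adjusted p = 0.011 and 0.22). Of the myelin genes, Mbp fell at 1 of 3 probes by 0.51 and by 0.56 (adjusted p = 0.0072 and 0.0035; -0.27 and -0.31 under the normexp correction), while another was 0.31 higher in PR (adjusted p = 0.034). Mog rose by 0.29 and 0.34 (adjusted p = 0.026 and 0.010), and Mobp rose by 0.23 in PR at 1 of 3 probes (adjusted p = 0.044).

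In PR, Neurod1 of the granule cells was 0.30 higher at one probe and 0.24 lower at the other (adjusted p = 0.041 and 0.032 in limma). Zic1 fell in FA at both probes, by 0.35 and by 0.26 (adjusted p = 0.0051 and 0.026). In PR, Kcnj13 of the choroid plexus was 0.19 higher at 1 of 2 probes (adjusted p = 0.046) and the neuronal Snap25 was 0.15 lower (adjusted p = 0.032). F5 of the choroid plexus was 0.28 lower in FA at 1 of 2 probes (adjusted p = 0.040), and the other differed by -0.29 (adjusted p = 0.064). The part of any of these cell types in the levels of the clock genes was not tested.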

How the data were processed

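Gene expression was measured in whole brain RNA of 12 adult male progenies with one-colour Agilent arrays. The authors labeled the RNA with Cy3 and quantified spot intensity with Agilent Feature Extraction, version 11.0.1.1. Probe positions are those of mm9. The scanner intensity of each spot, corrected for background within the array, was deposited, as was a table of 1 normalized intensity per probe on the linear scale, which the authors made with the qspline function. Each of the 12 columns of this table matched its own array best, by the correlation of deviations from the probe means over the arrays. The log2 values of a column and of its own array had r from 0.997 to 0.999. The methylation arrays were not analysed here.

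The log2 of the deposited normalized intensity was analysed, without a filter and without a pseudocount. Samples were grouped by their diet labels. One limma model (version 3.58.1, R 4.3.3) held all 3 groups and all 39429 probes. Its two-sided p-values were adjusted by Benjamini-Hochberg within each comparison, and an adjusted p under 0.05 was called a change. The scanner software flags spots well above background, and a probe needed the flag at 50% of its spots or more. The number of arrays limits the precision. The correlation with Arntl was tested by exact permutation of the mice within groups (13824 arrangements), two-sided. On simulated arrays, 100 probes were changed by 0.3 and 100 by 0.6 on the log2 scale, in FA only. Of these, limma recovered 28% and 78% between FA and CD, with 7 false calls over 39429 probes. The Tukey test of the methods recovered 19% and 67%, with 3 false calls. Between the real FA and CD arrays 13558 probes changed in limma, so these rates do not carry over to them.

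The members and the other lists were chosen with earlier results of these data known, so none of them is independent support. All probes of the members were reported. From the other lists, up to 4 genes with the largest absolute difference in PR relative to CD were named, among probes well above background on all arrays with an adjusted p under 0.05 in any comparison. One gene that this rule names is not reported here. For Dbp and Arntl, the 5 most alike and the 5 most opposed probes were named. The lists were other clock genes, immediate early, glucocorticoid-responsive, and temperature-responsive genes, and markers of the suprachiasmatic nucleus, neurons, astrocytes, oligodendrocytes, microglia, endothelium, choroid plexus, pituitary, erythroid cells, cerebellar granule cells, and the pineal gland. Gene names were those of the array design.

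The alternatives were scaling of the scanner intensities to the 75th percentile, quantile normalization, normexp background correction (offset 50), removing dim probes, limma with a variance trend and robust estimation, separate fits of the 2 groups compared, the replicate number as a block, the Tukey test of the methods, and leaving out each array. Keeping outlier spots was added after the data were seen. Promoters were searched in Python 3.11.15 and figures drawn with matplotlib 3.10.9.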

Additional observations from a re-analysis of the deposited data

Results flagged for a closer look

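In groups of 4 mice, a mouse whose gap to the nearest other mouse took most of the range of its group was looked for at each of the 13 probes. Of 39 groups, 4 had such a mouse, and chance gives about 1 in 20 groups. Cry1 was 6.85 in PR replicate 1, against 6.69 to 6.71 in the other PR mice. The dimmer Cry2 probe was 8.37 in PR replicate 2, against 8.07 to 8.10 in the others, and 8.21 in FA replicate 3, against 8.33 to 8.35. The dimmer Dbp probe was 14.28 in FA replicate 1, against 14.13 to 14.15 in the other FA mice.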

How the results depend on the processing

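No difference of a clock gene probe turned its direction past the threshold in any alternative. Nr1d1 in both comparisons with CD, and Per1, the brighter Dbp probe, and the dimmer Cry2 probe between FA and CD, were called in all 21 alternatives. The number of clock gene probes changed between FA and CD was 7, and it was 4 with the Tukey test of the methods, where both Nr1d2 probes and the dimmer Dbp probe had adjusted p of 0.054 to 0.096. Between FA and PR the number was 0, and it was 1, the brighter Dbp probe, with the normexp correction (adjusted p = 0.043), without dim probes (0.036), and with trend and robust variance (0.038). When 1 array was left out, the number ran from 1 to 3 between PR and CD, from 5 to 7 between FA and CD, and from 0 to 1 between FA and PR. It was 1 without PR replicate 3. Arntl in PR had an adjusted p of 0.059 with only the 2 groups compared and 0.12 with outlier spots kept.

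The replicate numbers did not pair the mice. Deviations of mice with the same number correlated at -0.06 to 0.20, over 0.1 in 1 of 4 pairs of each comparison. With the replicate block, the numbers of changed probes were 2, 6, and 0, where the adjusted p of Arntl in PR was 0.079, that of the dimmer Cry2 probe in PR 0.029, and that of the dimmer Dbp probe in FA 0.069. No other call on a clock gene probe was changed by the block.

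With arrays scaled to the 75th percentile, the median difference of probes with a log2 level over 13 moved to -0.11 between PR and CD and to -0.09 between FA and CD, and Per1, Dbp, and the brighter Cry2 probe are in this range. Arrays of each diet shared a slide, so no value within a slide could be had.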
